A study of Mus musculus with 8 samples.

Results

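The C1q/TNF related proteins, encoded by the C1qtnf genes and also called CTRPs, are secreted proteins related to adiponectin. The genes described here were chosen by symbol from a list of 9 (C1qtnf1, C1qtnf2, C1qtnf3, C1qtnf4, C1qtnf5, C1qtnf6, C1qtnf7, C1qtnf9 and C1qtnf12), and the family was selected with its difference between the 2 groups of samples already known. Of the 9 genes, 8 were in the table used here, which listed 18540 genes, and these 8 passed the filter on low counts that left 15147 genes for testing. C1qtnf5 was not analysed here. Because C1qtnf3 ranked 1 of 15147 genes by the p-value of that same contrast, the differences between the groups are given below as a description of these samples and not as a test of the family.

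The samples were mouse skin wounds profiled by RNA-seq. ZCZ is a zeolitic imidazolate framework, ZIF-8, that carries zinc peroxide and cerium dioxide. The study's text on sequencing calls the treated group ZCZ without naming a version. From sample names in the study it was taken as Z1C2Z, the version with more cerium dioxide relative to zinc peroxide. The control wounds received phosphate-buffered saline, and the methods give 15 days of treatment for the sequenced tissue. The study describes its wound experiments as injections of 100 μg/kg around the wound. There were 4 samples in each group, numbered 1, 2, 3 and 5 for the control and 1, 2, 4 and 5 for Z1C2Z. The labels give no strain, age or sex for them, and the methods, which describe a pair of wounds on each mouse, do not say which samples came from C57 or diabetic db/db mice or shared an animal. P-values therefore measure only the spread between these samples. Library totals ran from 28856790 to 38249438 counts in the control group and from 33966536 to 38974888 counts in the Z1C2Z group. Levels are given as CPM, the count of a gene scaled to a common library total, after TMM scaling, or as CPM per kilobase of annotated exon where genes are compared with each other.

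Some libraries stood apart in skin marker genes. The summed CPM of 11 hair shaft genes was 3713 in Z1C2Z-2 and 3557 in Z1C2Z-4, against 1325 in Z1C2Z-1 and 445 in Z1C2Z-5. It lay between 81.4 and 386 in the control samples. In the Z1C2Z group 11 of 11 of these genes were called higher by edgeR, beside 4.28% of all 15147 tested genes. Control-1 had the lowest control sums of 8 fibroblast genes and of 6 endothelial genes. Its endothelial sum was 316 CPM, against 584 to 840 in the other control samples and 276 to 522 in Z1C2Z samples. Of 6 endothelial genes, 0 were called by edgeR, beside 3.85% of all genes lower. At an unadjusted p under 0.05, 3 were lower, beside 15.2% of all genes, and DESeq2 called 2 lower, beside 9.05%. The epidermal genes, 6 of 6 of which were measured, summed to between 14022 and 15275 CPM in control samples and between 13203 and 18349 CPM in Z1C2Z samples, so the defining markers of the labelled tissue were present in every library.

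Proteins of this family typically have a signal peptide, a collagen-like stretch in which glycine recurs at regular intervals, as Gly-X-Y triplets, and a globular C1q domain at the carboxyl end, whose fold resembles that of tumour necrosis factor. They assemble through the C1q domain and the collagen-like stretch and act outside the cell, several of them as hormones of fat, liver, muscle or heart. Fat, fibroblasts, vessels and immune cells of skin are all possible sources of these transcripts.

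The collagen-like stretch is where members of the family differ most plainly in length, so it is shown for the member with the largest decrease and for the member that was higher in every treated sample. Both are coding sequence on GRCm38 from the GENCODE vM21 transcripts, C1qtnf3 from codons 118 to 186 on chromosome 15 and C1qtnf12 from codons 94 to 117 on chromosome 4. Capitals mark the glycine codons of the repeat.
C1qtnf3: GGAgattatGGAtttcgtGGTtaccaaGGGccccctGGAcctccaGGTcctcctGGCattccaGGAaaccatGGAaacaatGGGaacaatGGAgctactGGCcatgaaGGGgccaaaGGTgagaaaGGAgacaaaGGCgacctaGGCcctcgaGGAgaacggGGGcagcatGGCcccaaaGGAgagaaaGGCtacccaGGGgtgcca
C1qtnf12: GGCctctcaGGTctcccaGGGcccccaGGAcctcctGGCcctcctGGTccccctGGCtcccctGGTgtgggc
The C1qtnf3 run has 23 uninterrupted triplets and the C1qtnf12 run has 8.

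In the other members the longest uninterrupted run was 37 triplets in C1qtnf9, 34 in C1qtnf2 and in C1qtnf7, 23 in C1qtnf5, and 14 in C1qtnf1 and in C1qtnf6. C1qtnf4, which carries a pair of C1q domains, had at most 2. Translations of the coding sequences also separated close pairs from distant members. Over the last 130 residues, which hold the C1q domain, C1qtnf2 and C1qtnf7 were 65.4% identical and C1qtnf1 and C1qtnf6 were 61.1% identical. The C1qtnf3 residues were 22.4% to 30.4% identical to those of the other members, and the C1qtnf12 residues 15.2% to 22.4%. C1qtnf3 and C1qtnf12 are thus distant from the close pairs in sequence, and so is C1qtnf4, at 15.2% to 35.0%.

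**Figure D1:**
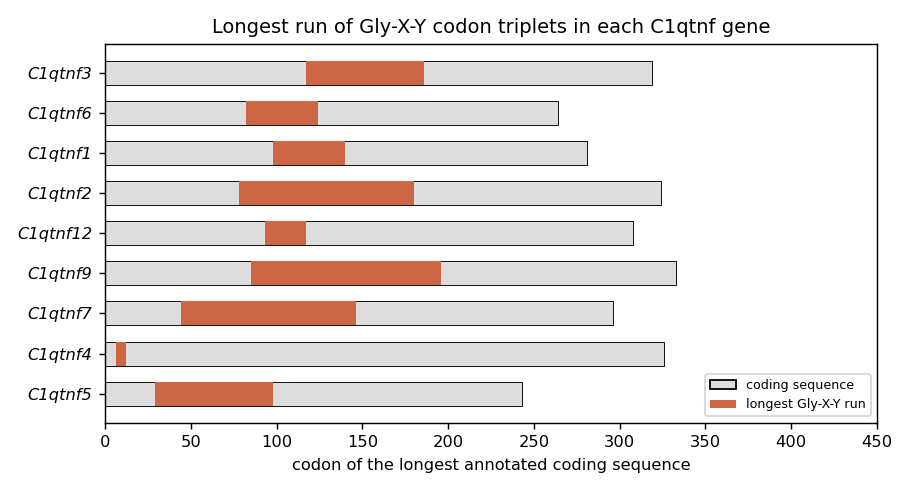
Coding sequence of the 9 C1qtnf genes drawn to scale in codons from the start codon (x axis), with the longest uninterrupted glycine repeat marked on each. The repeat spans 37 triplets in C1qtnf9, 23 in C1qtnf3 and 8 in C1qtnf12, and C1qtnf4 has at most 2 in a row.

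The family was dominated by C1qtnf3 in these wounds. Per kilobase of exon, its level was 284 ± 35.6 CPM (SD, n = 4) in control samples and 138 ± 6.05 CPM (SD, n = 4) in Z1C2Z samples. C1qtnf6 followed with 48.5 ± 9.62 CPM per kilobase in control and 31.0 ± 5.20 in Z1C2Z samples, and C1qtnf1 with 30.9 ± 6.51 and 23.3 ± 3.46. The ranges of C1qtnf6 and C1qtnf1 overlapped in both groups, although within a library C1qtnf6 was the higher in 4 of 4 control and 4 of 4 Z1C2Z samples.

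C1qtnf2 and C1qtnf12 changed places in the order. C1qtnf2 was at 19.2 ± 2.67 CPM per kilobase in control samples, above C1qtnf12 at 14.6 ± 0.614 with no overlap, whereas in Z1C2Z samples C1qtnf12 was at 19.8 ± 2.94 and C1qtnf2 at 15.5 ± 2.21 with overlapping ranges. Within a library C1qtnf2 was the higher in 4 of 4 control samples and C1qtnf12 in 4 of 4 Z1C2Z samples. C1qtnf1 and C1qtnf12, neighbours in the Z1C2Z group, were not separated, with C1qtnf1 the higher in 2 of 4 samples. C1qtnf9 and C1qtnf7 were lower, with control levels of 5.96 ± 1.59 and 2.55 ± 0.500 CPM per kilobase. C1qtnf4 was close to the limit of detection at 0.172 ± 0.149 CPM per kilobase in control samples. The order was the same when the length of the longest transcript was used in place of the exon total.

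C1qtnf3, also known as CTRP3 or cartducin, is a secreted factor first described in cartilage and later studied as an adipokine. Its CPM values were 675, 665, 861 and 706 for the control samples and 369, 332, 351 and 357 for the Z1C2Z samples, both in the order of the sample numbers. Every Z1C2Z sample was below every control sample, and the Z1C2Z values lay close together, with a coefficient of variation of 4.39% against 12.5% in the control group. The mean was 727 ± 91.0 CPM (SD, n = 4) in control and 352 ± 15.5 CPM (SD, n = 4) in Z1C2Z samples. The fitted log2 fold change, Z1C2Z against control, was −1.04 (SE 0.11, 95% interval −1.28 to −0.81), a ratio of 0.485, with an adjusted p of 0.0232 from edgeR's quasi-likelihood test.

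The other 7 members did not pass that threshold. In all, 1 of 8 members was called lower, where 3.85% of the 15147 tested genes were, and 0 of 8 were called higher, where 4.28% were. At an unadjusted p under 0.05, edgeR counted 4 members lower and 2 higher, where 15.2% of all tested genes were lower and 12.8% higher. DESeq2 with its own adjustment called 2 lower and 1 higher, where it called 9.05% of 16613 genes lower and 7.46% higher. Since this contrast served to choose the family, the counts describe it only. The C1qtnf3 call was lost in edgeR when control-5 was left out, and likewise without Z1C2Z-1, without Z1C2Z-2 or without Z1C2Z-4, fits in which 0 of all genes passed although 3100 to 4208 had an unadjusted p under 0.05, while its log2 fold change stayed between −1.22 and −0.95 in every alternative run.

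**Figure D2:**
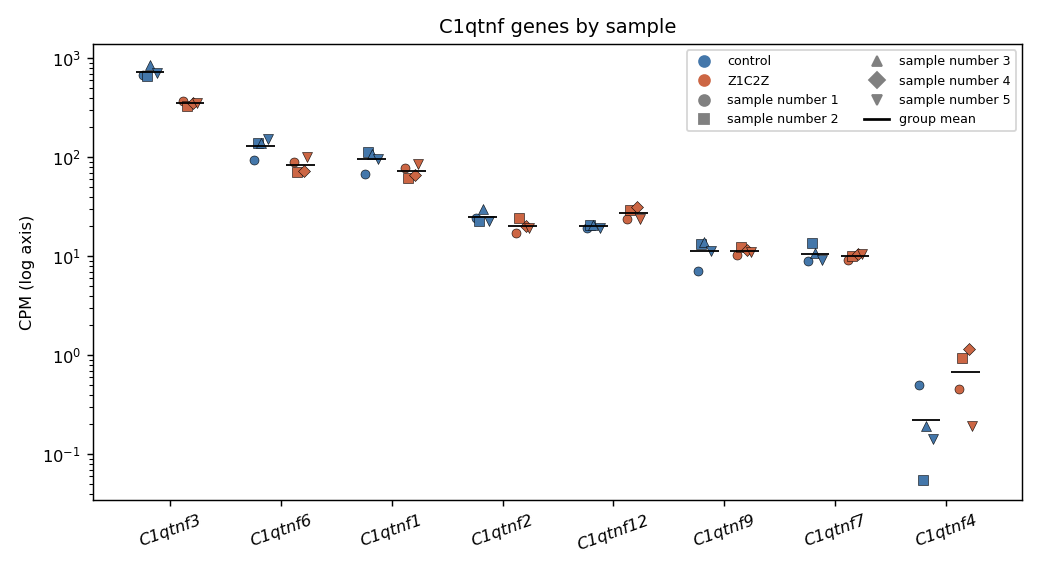
Level of each of the 8 measured C1qtnf genes in every sample, in CPM on a log axis, with control and Z1C2Z samples as separate points and a bar for each group mean. C1qtnf3 lies at 665 to 861 CPM in control and 332 to 369 CPM in Z1C2Z samples, and C1qtnf12 is the one member whose Z1C2Z points all sit above its control points.

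Cells that express C1qtnf3 can be fewer, or can hold less of its RNA, and bulk samples cannot tell these apart. Fibroblast genes had 8 of 8 log2 fold changes below 0, with a median of −0.58. Of the 8, 3 were called lower, Dcn, Lum and Thy1, beside 3.85% of all genes. Their summed CPM overlapped between the groups, at 55067 to 78303 in control and 43258 to 60725 in Z1C2Z samples. C1qtnf3 was also set against the geometric mean of these 8 genes in the same sample. It was at 35.0% ± 5.46 (SD, n = 4) in control and 25.0% ± 2.89 (SD, n = 4) in Z1C2Z samples, without overlap. The same ratio overlapped between the groups for the other members examined. In control and Z1C2Z samples it was 6.20% and 5.85% for C1qtnf6, 4.57% and 5.11% for C1qtnf1, and 1.21% and 1.46% for C1qtnf2. The part of fibroblast content in these values was not tested. Among 6 cartilage genes, Col2a1 had 0 to 7 counts and Matn1 0 to 1 counts per library. Sox9, a transcription factor of cartilage and hair follicle, had 1306 to 3985 counts and was called higher, by 0.82 on the log2 scale. The other tested genes of this list had log2 fold changes below 0, Acan at −0.55, Comp at −0.09 and Matn3 at −0.10. The 4 tested genes summed to 50.5 to 69.1 CPM in control and 76.1 to 107 CPM in Z1C2Z samples. Sox9 alone gave 36.8 to 56.2 CPM in control and 66.4 to 100 CPM in Z1C2Z samples.

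Skeletal muscle genes had sums of 3103 to 5617 CPM in control and 2557 to 2872 CPM in Z1C2Z samples. Of these genes, 3 of 8 were called lower, Acta1, Myh1 and Myh2, beside 3.85% of all genes. Smooth muscle and pericyte genes summed to 1101 to 1700 CPM in control and 769 to 921 CPM in Z1C2Z samples, also without overlap. Here 3 of 6 were called lower, Acta2, Cnn1 and Des, beside the same 3.85%. With a skeletal muscle score as covariate the C1qtnf3 log2 fold change was −1.22 with an adjusted p of 0.0545 in edgeR, and with a hair shaft score it was −1.17 with an adjusted p of 0.610. In each of those fits 1 of all genes was called. Neither the skeletal muscle sums nor the hair shaft sums overlapped between the groups, so these fits cannot tell such content apart from the group. The part of these cell types in the C1qtnf3 values was not tested.

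C1qtnf12, or adipolin, is a secreted factor linked to insulin sensitivity. It was measured at 19.3, 20.6, 20.8 and 19.2 CPM in the control samples and at 23.6, 29.5, 31.5 and 23.8 CPM in the Z1C2Z samples. The groups did not overlap, and the control values had the smallest coefficient of variation of the 8 members, 4.19%. The Z1C2Z mean was 27.1 ± 4.02 CPM (SD, n = 4), with a log2 fold change of 0.44 (SE 0.12) and an adjusted p of 0.0502 in edgeR, just outside the threshold. The higher values were in Z1C2Z-2 and Z1C2Z-4, the libraries with the largest hair shaft sums, and with the hair shaft score as covariate the log2 fold change was 0.10. Without Z1C2Z-5 the adjusted p was 0.0387 in edgeR, and DESeq2 gave 0.0120. These were the 2 of 15 alternatives under 0.05. With the replicate number as a block edgeR gave 0.283, and with the muscle score 0.313. Counting genes by separation alone, 1 of 8 members lay lower in every Z1C2Z sample, where 8.82% of tested genes did, and 1 of 8 lay higher in every Z1C2Z sample, where 8.45% did.

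C1qtnf6 and C1qtnf1 are the closely related pair with the shorter repeat, and C1qtnf1 is known from work on vessels and platelets. C1qtnf6 was at 93.0, 138, 140 and 152 CPM in control and at 90.0, 71.2, 73.3 and 101 CPM in Z1C2Z samples. Control-1 fell within the treated range, and the other 3 control samples lay above it. The means were 131 ± 26.0 and 83.8 ± 14.0 CPM (SD, n = 4 each), with a log2 fold change of −0.64 (SE 0.17) and an adjusted p of 0.0514 in edgeR. Without control-1 this adjusted p was 0.0296, and without Z1C2Z-5 it was 0.0362. DESeq2 gave 0.00615. These were the 3 of 15 alternatives under 0.05, and with the replicate number as a block edgeR gave 0.242. With the muscle score as covariate the log2 fold change was −1.03, with an adjusted p of 0.116 in edgeR.

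C1qtnf1 followed the same pattern at a lower level. Its values were 67.8, 113, 109 and 96.8 CPM in control and 78.8, 61.7, 66.2 and 85.0 CPM in Z1C2Z samples, and control-1 again lay among the treated samples. The means of 96.6 ± 20.4 and 72.9 ± 10.8 CPM (SD, n = 4 each) gave a log2 fold change of −0.41 (SE 0.17) with an adjusted p of 0.159 in edgeR, or 0.0412 without control-1. The fit without control-1 was the 1 of 15 alternatives under 0.05. With the muscle score as covariate the log2 fold change was −0.86. After removal of the group means, C1qtnf1 and C1qtnf6 had the highest correlation of any member pair, Pearson's r = 0.92 over 8 samples that share their depth and cell make-up. Their ratio nevertheless differed by group, with C1qtnf1 at 0.740 ± 0.0785 (SD, n = 4) of C1qtnf6 in control and 0.873 ± 0.0243 (SD, n = 4) in Z1C2Z samples, and the groups did not overlap. The share of all gene pairs whose ratio separates the groups was not computed. Both genes share exon bases with an annotated gene on the opposite strand, Gm11747 for C1qtnf1 and Gm49490 for C1qtnf6, and the strand setting of the counting is not given in the sources used here.

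C1qtnf2 and C1qtnf7, the other close pair in sequence, had little correlation within groups. C1qtnf2, a secreted regulator of lipid metabolism, was at 24.5, 22.9, 30.2 and 22.8 CPM in control and at 17.3, 24.2, 20.3 and 19.2 CPM in Z1C2Z samples. Z1C2Z-2 lay inside the control range, and the log2 fold change was −0.31 (SE 0.14, adjusted p = 0.173 in edgeR), or −0.65 with the hair shaft score and −0.49 with the muscle score as covariate, and −0.20 without control-3. C1qtnf7 was at 8.95, 13.5, 10.8 and 9.27 CPM in control and at 9.17, 9.97, 10.5 and 10.6 CPM in Z1C2Z samples, and the groups overlapped almost fully. Its log2 fold change was −0.08 with a 95% interval of −0.42 to 0.25. The deviations of C1qtnf2 and C1qtnf7 had r = 0.07 over 8 samples.

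C1qtnf9 is among the members most like adiponectin and is studied in heart and vessels. Its values were 7.11, 13.2, 13.8 and 11.2 CPM in control and 10.3, 12.5, 11.6 and 11.0 CPM in Z1C2Z samples. The means were 11.3 ± 3.03 and 11.4 ± 0.953 CPM (SD, n = 4 each), and the 95% interval of the log2 fold change ran from −0.44 to 0.44. Control-1 was the low sample here too. The interval leaves room for a difference of that size in either direction.

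C1qtnf4 was the least abundant member. It had 14, 2, 7 and 5 counts in the control samples and 16, 36, 46 and 7 counts in the Z1C2Z samples. Z1C2Z-2 and Z1C2Z-4 had the highest counts and Z1C2Z-5 fell inside the control range. With so few counts the log2 fold change of 1.67 had a 95% interval of 0.11 to 3.23 and an adjusted p of 0.155 in edgeR. It was 0.57 with the hair shaft score and 3.10 with the muscle score as covariate.

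**Figure D3:**
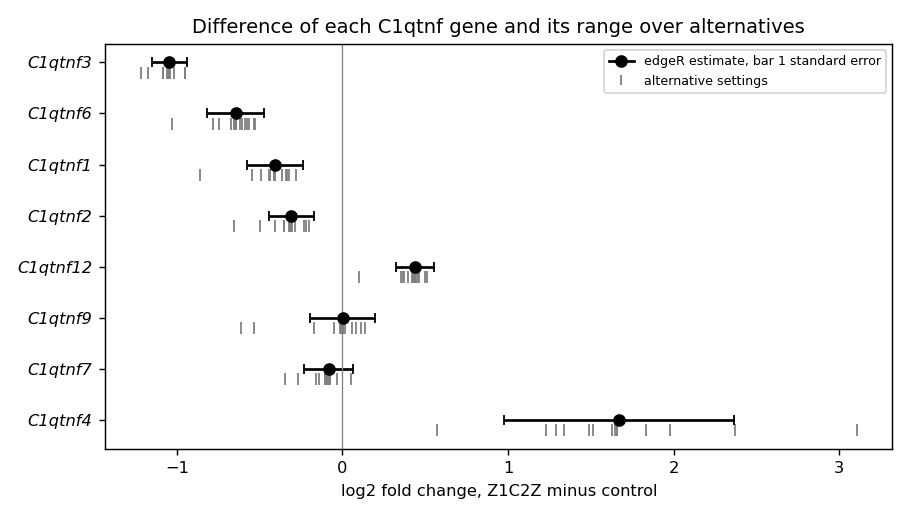
Log2 fold change of each C1qtnf gene, Z1C2Z against control, from the edgeR fit (x axis), as a point with a bar of 1 standard error, with grey ticks for the estimates under the alternatives. C1qtnf3 is at −1.04 with ticks from −1.22 to −0.95, C1qtnf12 is at 0.44 with 1 tick at 0.10, and the ticks of C1qtnf7 and C1qtnf9 lie on both sides of 0.

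Summed over the 8 genes, the family gave 1021 ± 121 CPM (SD, n = 4) in control and 578 ± 30.2 CPM (SD, n = 4) in Z1C2Z samples. C1qtnf3 made up 71.2% ± 3.49 of the control sum and 60.9% ± 1.47 of the Z1C2Z sum, with no overlap between the groups. Without C1qtnf3 the sum was 295 ± 49.4 CPM in control and 226 ± 18.2 CPM in Z1C2Z samples, and the groups overlapped. C1qtnf3 thus accounted for most of the difference between the family totals. The median log2 fold change over the 8 members was −0.20, with 5 below 0 and 3 above, beside a median of 0.01 over all 15147 genes.

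**Figure D4:**
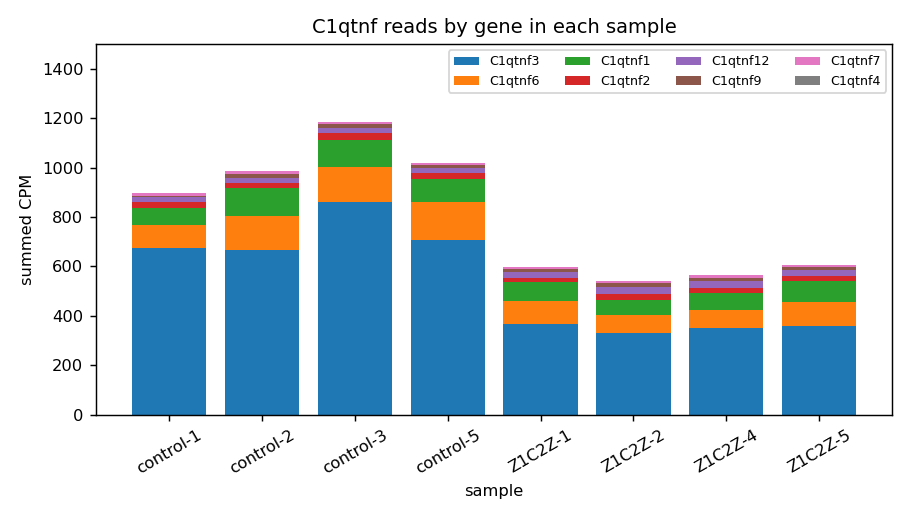
Summed CPM of the 8 measured C1qtnf genes in each sample, stacked by gene from 0. The control stacks reach 896 to 1185 CPM and the Z1C2Z stacks 542 to 608 CPM, and C1qtnf3 is the largest block in all 8 samples.

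Within groups, the members did not deviate as one. Control-1 was the lowest control sample for C1qtnf1, C1qtnf6, C1qtnf7 and C1qtnf9 but not for C1qtnf3. Among the treated samples, Z1C2Z-2 and Z1C2Z-4 were both below Z1C2Z-1 and Z1C2Z-5 for C1qtnf1, C1qtnf3 and C1qtnf6, and both above them for C1qtnf2, C1qtnf4, C1qtnf9 and C1qtnf12. C1qtnf4 went against the close pair, with r = −0.88 to C1qtnf1 and −0.87 to C1qtnf6. These correlations are descriptions over 8 samples, and the hair shaft sums given above separate the same treated libraries. So do the fibroblast, macrophage, endothelial and neutrophil sums, which were lower in Z1C2Z-2 and Z1C2Z-4. The fibroblast sums were 43649 and 43258 CPM there, against 53933 and 60725 CPM in Z1C2Z-1 and Z1C2Z-5. The hair shaft sums did not overlap between the groups, so the fits with the hair shaft score as covariate cannot tell hair shaft content apart from the group. The part of hair shaft content or of these other cell types in these values was not tested.

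**Figure D5:**
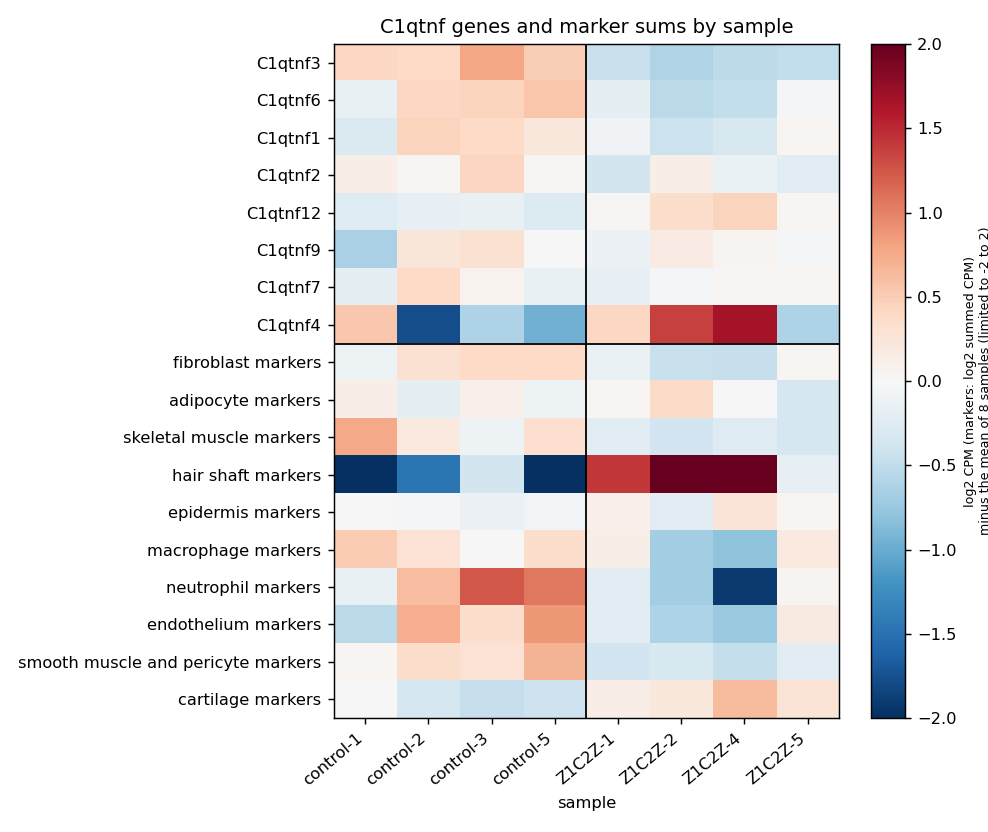
Deviation of each C1qtnf gene (log2 CPM) and of each marker sum (log2 summed CPM) from its mean over the 8 samples, by sample, with colours limited to −2 to 2. Control-1 is low for C1qtnf1, C1qtnf6 and C1qtnf9, and Z1C2Z-2 and Z1C2Z-4 differ from Z1C2Z-1 and Z1C2Z-5 in the C1qtnf4, C1qtnf12 and hair shaft rows.

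C1qtnf4, under a mean of 100 counts, was left out of the search for genes of like pattern. For each of the other 7 measured members, the genes with the most similar within-group deviations were taken from 12934 genes with a mean of at least 100 counts. The likest to C1qtnf3 were Pak1 (r = 0.93), Zbtb9 (0.92) and Usp22 (0.92). C1qtnf6 was most like Pcdhb19 (0.996), Mxra8 (0.994) and Disp1 (0.994), and C1qtnf1 was most like Edc4, Fam171a1 and Nynrin (all 0.99). C1qtnf12 was most like Ppif (0.986), Kctd1 (0.981) and Cirbp (0.979), and C1qtnf2 was most like Lck (0.965), Ccl5 (0.933) and Cdc16 (0.932). For C1qtnf7 they were Hexim1 (0.972), Arhgap33 (0.961) and Pla2g4e (0.960), and for C1qtnf9 they were Kcnj8 (0.981), Fbxw17 (0.968) and Wwp2 (0.963). Each r is over 8 samples and is the highest of many, so it names genes without weight on any one of them.

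Other genes with a C1q domain include adiponectin, the 3 chains of complement C1q and the iron hormone erythroferrone (Erfe). Of 22 listed, 18 were in the table and 15 were tested, and edgeR called 0 of them lower and 0 higher. At an unadjusted p under 0.05, 8 were lower and 0 higher, beside 15.2% and 12.8% of all genes, and DESeq2 called 3 lower, beside 9.05% of all genes. Their log2 fold changes were below 0 for 13 and above 0 for 2, with a median of −0.45 and a range from −1.51 (Erfe) to 0.21. The 15 tested genes summed to 866 to 1109 CPM in control and 638 to 838 CPM in Z1C2Z samples, without overlap, as did the C1qtnf sum. Adipoq, the gene of adiponectin, was at 70.7, 50.7, 64.6 and 54.4 CPM in control and 42.4, 55.0, 36.6 and 33.3 CPM in Z1C2Z samples. Z1C2Z-2 lay inside the control range, and the log2 fold change was −0.52 (SE 0.17, adjusted p = 0.0863 in edgeR and 0.0303 in DESeq2). DESeq2 was the 1 of 15 alternatives with an adjusted p under 0.05 for Adipoq. Adipocyte markers had 0 of 8 called by edgeR. At an unadjusted p under 0.05, 2 were lower, beside 15.2% of all genes, and DESeq2 called 1 lower, beside 9.05%. The adipocyte sums were 1066 to 1341 CPM in control and 972 to 1601 CPM in Z1C2Z samples.

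The chains of complement C1q are made mainly by macrophages. C1qa, C1qb and C1qc had log2 fold changes of −0.43, −0.31 and −0.42, with adjusted p-values in edgeR of 0.147, 0.163 and 0.127. With the hair shaft score as covariate they were −0.03, −0.0078 and −0.03, C1qa was at −0.26 without control-5, and C1qb was at −0.20 with the replicate block. Macrophage markers summed to 1077 to 1509 CPM in control and 611 to 1226 CPM in Z1C2Z samples, with 0 of 6 called by edgeR or DESeq2. At an unadjusted p under 0.05, 1 of these macrophage markers was lower, near the 15.2% of all genes. Their part in the C1q values was not tested.

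Receptors and binding partners proposed for adiponectin and its relatives were measured alongside. Of 7 listed, 6 were in the table and 5 were tested, and edgeR called 0 in either direction. All 5 log2 fold changes were below 0, with a median of −0.15. The tested genes summed to 1423 to 1542 CPM in control and 1297 to 1358 CPM in Z1C2Z samples, without overlap. Counted by separation alone, 1 of 5 lay lower in every Z1C2Z sample, where 8.82% of all tested genes did. At an unadjusted p under 0.05, 1 of 5 was lower, near the 15.2% of all genes, and DESeq2 called 0. The adiponectin receptors Adipor1 and Adipor2 were at 165 and 161 CPM on average in control and both at 159 CPM in Z1C2Z samples, with SDs between 9.77 and 14.1 CPM over 4 samples. Their log2 fold changes were −0.05 and −0.01. Cdh13, which encodes the adiponectin-binding T-cadherin, was at 64.1 ± 10.9 CPM in control and 48.5 ± 7.02 CPM in Z1C2Z samples (SD, n = 4 each). Its log2 fold change was −0.40 with an adjusted p of 0.117 in edgeR, or −0.18 with the hair shaft score as covariate. Mfrp, the gene that shares a transcript with C1qtnf5, was not analysed here.

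The AMPK pathway is the energy-sensing kinase cascade through which adiponectin receptors are known to signal. All 13 listed genes were tested, and edgeR called 0 of them. At an unadjusted p under 0.05, 2 of 13 were lower and 1 higher, near the 15.2% and 12.8% of all genes, and DESeq2 called 1 lower, beside 9.05% of all genes. Their log2 fold changes ranged from −0.46 to 0.44, with 8 below 0, 5 above 0 and a median of −0.11. Adjusted p-values from edgeR ran from 0.0909 to 0.711 in this list.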

How the data were processed

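Total RNA from mouse wound skin was depleted of ribosomal RNA and made into random-primed, dUTP-marked cDNA libraries, per the labels. The authors deposited raw counts per gene, which sum to a different total in each sample. The aligner, counter, genome build, annotation and strand setting are not given in the sources used here. Of the values in the table, 0 columns were left out. Samples were grouped by title, and "shiyan" was taken as the Z1C2Z group because the sample numbers match the names in the study.

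Counts were filtered with filterByExpr, scaled by TMM and fitted with edgeR 4.0.16 (limma 3.58.1, R 4.3.3) by the quasi-likelihood test on 8 samples without covariates, with Benjamini-Hochberg adjustment over 15147 genes and a threshold of 0.05. CPM used the TMM-scaled totals, and log2 CPM a prior count of 2. The count tables limit precision by depth, which was at least 28856790 counts in every library, and counts of C1qtnf4 were too few for a precise fold change. On simulated counts for 15147 genes, of which 200 were changed by a log2 fold change of 2, the test recovered 186 (93%) and called 5 unchanged genes. DESeq2 1.42.0, RLE scaling, no filter on low counts, a minimum of 10 counts in each of the samples, the replicate number as a block, a muscle or hair shaft marker score as covariate, and leaving out each sample were the alternatives. Gene lengths and coding sequences were from GENCODE vM21 (GRCm38), and the longest transcript as length was added after the data were seen.

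The members and gene lists were chosen with earlier results of these data known. Named genes were all members, Adipoq, C1qa, C1qb, C1qc, Adipor1, Adipor2, Cdh13 and Mfrp, any gene of the other C1q domain, receptor and AMPK lists with an adjusted p below the threshold (0 genes), and the 3 genes most like each member of at least 100 mean counts by Pearson's r of log2 CPM after subtraction of group means. Erfe and the named marker genes were chosen after their values were seen. Neutrophil markers summed to 572 to 1497 CPM in control and 167 to 655 CPM in Z1C2Z samples, with 0 of 5 tested genes called by edgeR. At an unadjusted p under 0.05, 3 were lower, beside 15.2% of all genes, and DESeq2 called 2 lower, beside 9.05%.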

Additional observations from a re-analysis of the deposited data

How the results depend on the processing

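The count of members called was 1 lower and 0 higher. DESeq2 gave 2 lower and 1 higher, and over all genes 9.05% lower and 7.46% higher. The skeletal muscle score and the hair shaft score as covariates each gave 0 lower. Leaving out one sample gave 0 to 3 lower and 0 to 1 higher. The 3 came without control-1, when 5.68% of all genes were lower, and the 1 higher without Z1C2Z-5, when 5.80% of all genes were higher. C1qtnf3 lost its call with either covariate, and without control-5, without Z1C2Z-1, without Z1C2Z-2 or without Z1C2Z-4, and kept its direction in all 15 alternatives, from −1.22 to −0.95. The cause was not tested, beyond fewer samples in the fits that leave one out.

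Values near 0 changed sign. The C1qtnf7 log2 fold change ran from −0.16 to 0.055 when one sample was left out, and was above 0 without control-2. That of C1qtnf9 was −0.0083 by DESeq2, −0.0070 with RLE scaling, −0.61 with the muscle score, −0.53 with the hair shaft score, and from −0.17 to 0.11 when one sample was left out, below 0 without control-1, control-5, Z1C2Z-2 or Z1C2Z-4. Adipor1 was at 0.10 with the muscle score and 0.0029 with the hair shaft score. Adipor2 was at 0.011 with the replicate block and from −0.060 to 0.028 when one sample was left out, above 0 without control-2, control-3, Z1C2Z-1 or Z1C2Z-5. Of the single-gene values under alternatives, 195 kept direction and side of the threshold, 7 newly passed it, 6 no longer passed and 16 changed sign.

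The groups share 3 replicate numbers. Same-numbered samples had correlations of deviations of −0.10, −0.06 and 0.32, and the sources do not say which samples shared an animal, so the numbers were not treated as pairs. With the replicate block, 554 genes were called in all against 1231, 1 member was lower and 0 higher, and C1qtnf3 was at −0.95 with an adjusted p of 0.0236 in edgeR. Over all genes DESeq2 called 2743, and 123 were called without control-2. C1qtnf4 could not be fitted with at least 10 counts in every sample, and its few counts limit what depth can show.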
